A study of Mus musculus with 16 samples.

Results

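A set of 10 genes of NF-kB signalling and of interleukin sensing were followed in quadriceps muscle of mice lacking or carrying Klf15, with and without the synthetic glucocorticoid dexamethasone. They were chosen by name as Nfkbia, Nfkbib, Tnfaip3, Nfkb1, Nfkb2, Relb, Il1r1, Il1r2, Il6ra and Socs3, and every array probe whose accession matched one of these symbols was taken. Of the 10 listed genes 9 were found, with 11 probes among the 41174 on the array. Il1r2 and Il6ra had 2 probes each and 7 genes had 1. No probe accession matched Nfkb1, which was not analysed here. All 11 probes were well above background on all 16 arrays, so none was lost to the filter on dim probes.

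The 4 groups of 4 animals were Klf15 knockout (KO) mice given 2 mg/kg dexamethasone by intraperitoneal injection, wild-type (WT) mice given the same dose, KO mice given vehicle, and WT mice given vehicle, all sampled at 8 h. Each animal had 1 single-colour array, and the arrays lay on 8 slides. The labels do not give the allele behind the knockout, the sex or the age. RNA came from whole muscle, so that fewer cells of a type and less RNA per cell cannot be told apart in any result below. Levels are log2 of the processed intensity over the 75th percentile of intensity on the same array, and a change is a difference of group means on that scale.

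The targeted gene followed the labels: Klf15 was lower in KO than in WT with both of its probes, with log2 changes of -3.83 and -3.79 under dexamethasone and of -3.12 and -3.97 under vehicle. All 8 skeletal muscle markers were well above background on every array. Arrays had 75th percentiles between 554 and 1169 intensity units, and 66.3% to 80.6% of spots were well above background. Neutrophil markers stood apart on 2 arrays. Their summed signal was 98.2 times the 75th percentile on KO dexamethasone replicate 1 and 241 times on WT dexamethasone replicate 3, against 0.212 to 1.28 on the other 14 arrays. All 10 listed neutrophil genes were well above background on these 2 arrays and 2 to 9 on the others, with Camp and Mmp8 on no KO vehicle array and Ngp, Elane, Mmp8 and Cxcr2 on no WT vehicle array. Without both arrays 2 of the calls below were lost, those of Tnfaip3 and of the second Il1r2 probe in KO, and the other calls on the 9 genes held.

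NF-kB is a family of transcription factors held in the cytoplasm by inhibitor proteins of the IkB family. Signals such as interleukin-1 and tumour necrosis factor activate a kinase complex that marks IkB for destruction, and the freed factor enters the nucleus and induces inflammatory genes together with its own inhibitors. Glucocorticoids are known to dampen this pathway, in part by raising Nfkbia in many cell types. Interleukin-6 acts through its receptor and the JAK-STAT pathway, which SOCS3 restrains.

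The promoters of the inhibitors are shown first, because Nfkbia and Tnfaip3 are textbook targets of NF-kB and moved in opposite directions under dexamethasone. Windows run from 250 bases before to 50 after the RefSeq start (GRCm38.p6), 5′ to 3′ on the gene's strand, and capitals mark matches to the kB consensus on either strand. They are Nfkbia (chr12:55492598-55492897, minus strand), Tnfaip3 (chr10:19015361-19015660, minus strand) and Nfkb2 (chr19:46304487-46304786, plus strand).
Nfkbia: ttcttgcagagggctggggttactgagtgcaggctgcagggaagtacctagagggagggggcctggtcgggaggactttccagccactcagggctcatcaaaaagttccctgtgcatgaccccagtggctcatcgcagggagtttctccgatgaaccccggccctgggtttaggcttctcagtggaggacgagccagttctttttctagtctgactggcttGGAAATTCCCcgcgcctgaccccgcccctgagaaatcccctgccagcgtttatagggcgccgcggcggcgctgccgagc
Tnfaip3: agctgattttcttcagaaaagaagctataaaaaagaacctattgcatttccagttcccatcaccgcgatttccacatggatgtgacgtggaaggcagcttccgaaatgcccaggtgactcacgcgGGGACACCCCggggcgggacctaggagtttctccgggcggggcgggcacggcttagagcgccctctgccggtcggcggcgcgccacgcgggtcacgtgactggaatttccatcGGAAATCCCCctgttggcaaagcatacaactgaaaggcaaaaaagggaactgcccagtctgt
Nfkb2: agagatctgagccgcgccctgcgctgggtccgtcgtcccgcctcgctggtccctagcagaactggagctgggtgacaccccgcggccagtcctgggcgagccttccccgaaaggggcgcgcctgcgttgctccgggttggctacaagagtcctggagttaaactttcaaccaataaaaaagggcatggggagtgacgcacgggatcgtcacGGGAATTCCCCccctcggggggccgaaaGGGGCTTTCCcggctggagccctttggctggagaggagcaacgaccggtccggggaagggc
The match GGAAATTCCC of Nfkbia began 29 bases before the start (-29). Tnfaip3 held GGGACACCCC at -125 and GGAAATCCCC at -12, and an AP-1 match, TGACTCA, at -136. In Nfkb2 the matches at -39 and -38 overlap each other, and another, GGGGCTTTCC, lay at -11.

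Of the 10 genes 8 had a window, 12 windows in all, and 6 windows of 4 genes held a kB match (Nfkbia, Tnfaip3, Nfkb2 and Il1r1), where 8.46% of 32851 mouse promoter windows did. All Nfkb2 windows held a kB match, and those numbered 2 and 3 by position overlap and share a match. The share over all promoters counts windows and not genes, so a gene with several windows can count more than once. A STAT match, TTCNNNGAA, was found in the windows of Socs3, Il1r2 and Nfkb2 and in 8.30% of all windows. The glucocorticoid half-site AGAACA was in windows of Il1r1 and Tnfaip3 and in 18.97% of all windows, and the full glucocorticoid response element was in no member's window. These are matches of letters in short windows and say nothing of binding.

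The promoter of Nfkbib, the inhibitor that differed between genotypes, held no kB match. It is shown with capitals at its match to CCNCNCCC (either strand), a GC-rich pattern of the kind bound by Krüppel-like factors, which 49.5% of all windows also held. Of the 8 genes with a window 7 held this pattern, Il1r2 being the exception. Socs3 held 7 matches and the windows of Nfkb2 held 12, where a match shared by windows 2 and 3 was counted in each. Neither Socs3 nor Nfkb2 passed between genotypes. The window is chr7:28766595-28766894, minus strand.
Nfkbib: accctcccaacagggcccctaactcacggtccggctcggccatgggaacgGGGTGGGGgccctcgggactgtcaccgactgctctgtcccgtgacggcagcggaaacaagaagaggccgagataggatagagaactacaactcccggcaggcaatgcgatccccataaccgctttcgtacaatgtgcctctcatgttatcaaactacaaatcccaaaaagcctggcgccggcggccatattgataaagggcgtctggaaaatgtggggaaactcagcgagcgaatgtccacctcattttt

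Under dexamethasone 4 of the 9 genes passed in KO, where 10.5% of 32397 probes did, and 2 passed in WT, where 12% did. Nfkbia, Il1r1 and Il1r2 rose and Tnfaip3 fell in KO muscle, whereas in WT muscle Nfkbia rose and Tnfaip3 fell. Averaged over genotypes 6 genes passed, against 18.2% of probes: Nfkbia, Il1r1 and Il1r2 rose, and Tnfaip3, Relb and Socs3 fell. The 3 rises in KO stand beside 5.52% of probes higher, and the 1 fall beside 4.94% lower. In WT 1 gene was higher, beside 5.33% of probes, and 1 was lower, beside 6.66%. The average had 3 higher, beside 8.99%, and 3 lower, beside 9.17%. With normexp background correction, under which the median SD within groups was 0.502 against 0.267, no gene passed in KO or in WT, and Nfkbia, Il1r1 and Il1r2 passed on average. Calls are limma's moderated test over all 32397 probes with a Benjamini-Hochberg adjusted p under 0.05, two-sided, with n = 4 arrays per group. The share of higher probes among those called depended on scaling: it was 52.8% in KO and 44.4% in WT, and 43.3% and 80.0% after scaling to the median or 42.3% and 56.4% after quantile normalization. For the average it was 49.5%, and 64.2% after scaling to the median.

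**Figure D1:**
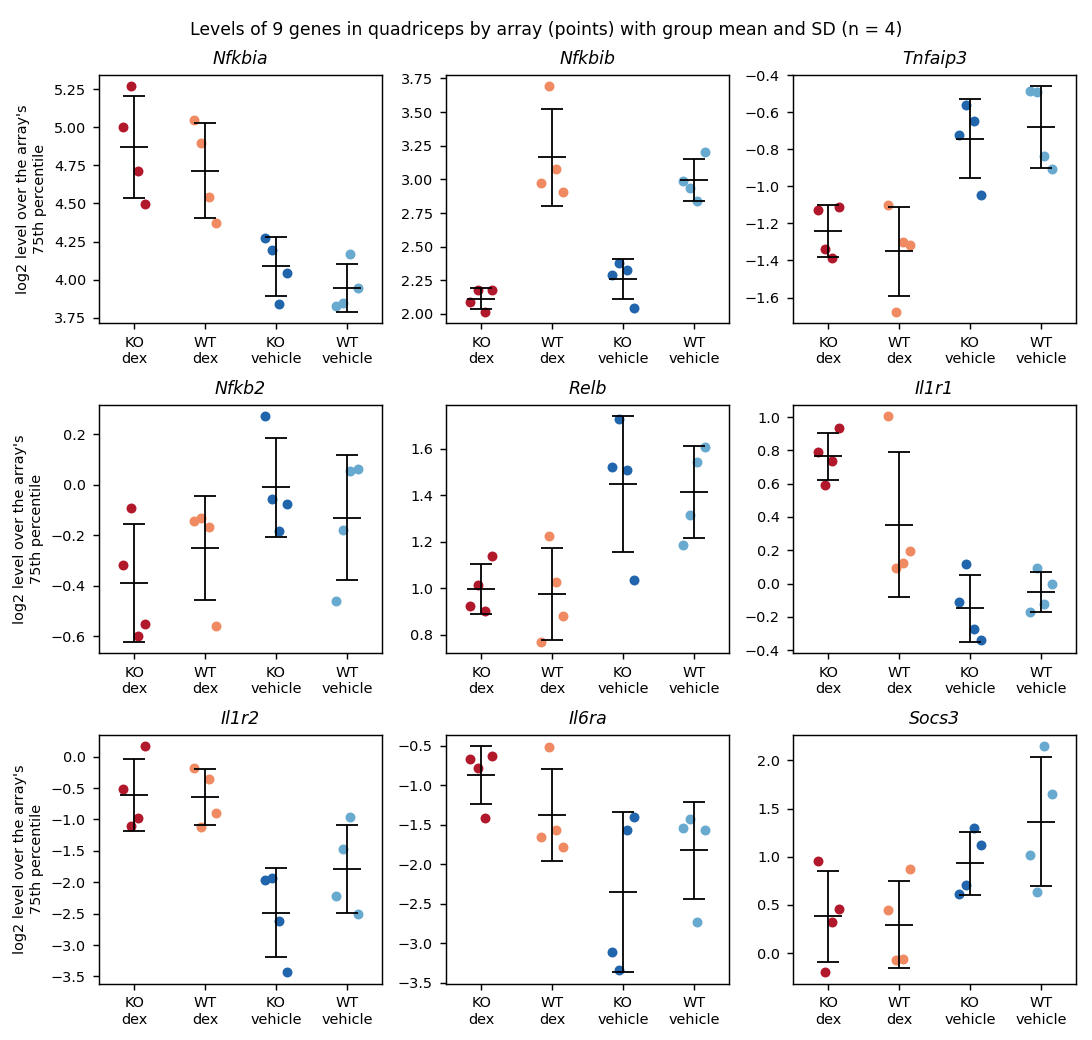
Level of each of the 9 genes (log2 over the array's 75th percentile, brightest probe) on every array. Points are animals and black bars are the group mean and SD (n = 4), in the order KO dexamethasone, WT dexamethasone, KO vehicle, WT vehicle. Nfkbia and Tnfaip3 separate dexamethasone from vehicle arrays, and Nfkbib separates KO from WT arrays.

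Nfkbia encodes IkB-alpha, the main inhibitor that NF-kB itself induces. Its level was 4.999, 5.27, 4.71 and 4.499 in KO dexamethasone arrays and 5.05, 4.90, 4.54 and 4.37 in WT dexamethasone arrays, against 4.27, 4.19, 3.84 and 4.04 in KO vehicle arrays and 3.83, 3.84, 4.17 and 3.94 in WT vehicle arrays. All 8 dexamethasone arrays lay above all 8 vehicle arrays, as they did for 2.89% of probes. Nfkbia rose 1.72-fold in KO (log2 change 0.78 ± 0.18 SE, adjusted p = 0.0132, limma) and 1.70-fold in WT (0.77 ± 0.18, adjusted p = 0.0140). The KO call was lost with only the groups compared (adjusted p = 0.0512) and with normexp (0.80, adjusted p = 0.135), and the WT call with normexp (0.66, adjusted p = 0.344). The difference between the genotypes' changes was 0.01, with a 95% interval of -0.54 to 0.57. Within slides the rise was 0.96, 0.66 and 1.00 in KO and 0.95 in WT. The genes whose pattern over the 16 arrays was most like it were Tacc1 (Pearson r = 0.9752), Paxip1 (0.947) and Irak3 (0.934), all of which share these arrays and the 2 treatments.

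Tnfaip3 encodes A20, a ubiquitin-editing enzyme that NF-kB induces and that shuts off signalling to it. Its level was -1.13, -1.34, -1.39 and -1.11 in KO dexamethasone arrays and -1.10, -1.68, -1.30 and -1.32 in WT dexamethasone arrays, against -0.72, -0.56, -0.64 and -1.05 in KO vehicle arrays and -0.48, -0.49, -0.83 and -0.91 in WT vehicle arrays. No dexamethasone array reached the lowest vehicle array, a separation that 2.3% of probes showed. Tnfaip3 fell by 0.50 log2 units in KO (SE 0.15, adjusted p = 0.0486, limma) and by 0.67 in WT (SE 0.15, adjusted p = 0.00995). The KO call held in 3 of 13 other settings and in 3 of 16 fits that each left out 1 array, and without both neutrophil-high arrays its adjusted p was 0.0817, so it is borderline. The WT call held in 9 of 13 settings, and not with median scaling, normexp, slide as a fixed block or only the groups compared. The average fall was 0.58 (adjusted p = 0.0014), which held in every left-out fit. Under normexp background correction it was -0.30 (adjusted p = 0.584).

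The nearest pattern to Tnfaip3 was that of Ccl7, a monocyte-attracting chemokine (r = 0.955), followed by Slamf9 (0.930) and Fstl1 (0.924). Macrophage markers were lower on all dexamethasone than on all vehicle arrays in WT. The summed signal of 7 of the 8 listed markers was 6.60 to 12.3 in KO dexamethasone arrays and 6.45 to 8.60 in WT dexamethasone arrays, against 8.31 to 11.0 in KO vehicle arrays and 9.31 to 13.8 in WT vehicle arrays. The summed signal of the 7 endothelial markers overlapped in KO, at 13.2 to 16.8 under dexamethasone against 14.9 to 17.5 under vehicle, but their median deviation from the mean over arrays did not, at -0.21 to -0.08 log2 units against 0.25 to 0.41. The summed signal of the 5 fibroblast markers in WT was 176 to 255 under dexamethasone, against 256 to 296 under vehicle. Their median deviations overlapped, at -0.66 to 0.16 log2 units against 0.09 to 0.25. The part of these cell types in the falls of Tnfaip3 and Relb was not tested.

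Nfkbib encodes IkB-beta, a second inhibitor of NF-kB. Its level was 2.09, 2.18, 2.01 and 2.17 in KO dexamethasone arrays, against 2.97, 3.70, 3.08 and 2.90 in WT dexamethasone arrays. Under vehicle it was 2.29, 2.38, 2.32 and 2.04 in KO, against 2.99, 2.94, 2.84 and 3.21 in WT. All 8 KO arrays lay below all 8 WT arrays, as they did for 0.443% of probes.

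Nfkbib was the only one of the 9 genes to pass between genotypes. It was 2.07-fold lower in KO under dexamethasone (log2 change -1.05 ± 0.15 SE, adjusted p = 0.0021, limma), where 2.86% of probes passed and 0.969% were lower. Of the probes that passed there 66.1% were higher in KO, against 17.4% after scaling to the median and 50.9% after quantile normalization, while Nfkbib stayed lower under both (-1.24 and -1.01). Under vehicle, where 0.235% of probes passed, the change was -0.73 ± 0.15 (adjusted p = 0.0861) and 0 of the 9 genes passed by limma. At an unadjusted p under 0.05, 1 gene would have passed there, Nfkbib. Only slide 8 held both genotypes under dexamethasone, as KO replicate 3 and WT replicate 4, and KO was lower there (-0.89). The 3 slides with both genotypes under vehicle gave -0.89, -0.67 and -0.55. With normexp the dexamethasone difference was -0.94 (adjusted p = 0.121). With slide as a fixed block it was -1.05 with an adjusted p of 0.0587, and as a random block the vehicle difference passed (-0.68, adjusted p = 0.0053). Cell type markers also differed between genotypes under vehicle. The summed endothelial signal was 14.9 to 17.5 in KO, against 10.9 to 14.6 in WT. The median fibroblast deviation was -0.18 to -0.00 log2 units in KO, against 0.09 to 0.25 in WT. The summed fibroblast signal overlapped there, at 215 to 266 in KO against 256 to 296 in WT. Under dexamethasone both sums overlapped between genotypes, and the part of these cells in the Nfkbib difference was not tested. Nfkbib changed under dexamethasone by -0.15 in KO and 0.17 in WT, neither of which passed.

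The pattern of Nfkbib was most like those of Pold4, a DNA polymerase delta subunit (r = 0.955), Bckdhb, a subunit of the branched-chain ketoacid dehydrogenase (0.953), and Pxmp2, a peroxisomal membrane protein (0.952). No tested chromosomal neighbour passed between genotypes. Under dexamethasone all 3 were lower in KO than in WT, with differences of -0.22 for Sars2 (adjusted p = 0.619), -0.29 for Sirt2 (0.399) and -0.31 for Rinl (0.746). Under vehicle Sars2 differed between KO and WT by 0.09 (adjusted p = 0.951), Sirt2 by -0.02 (0.993) and Rinl by 0.10 (0.980). Nfkbib hardly tracked Nfkbia (r = -0.102).

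**Figure D2:**
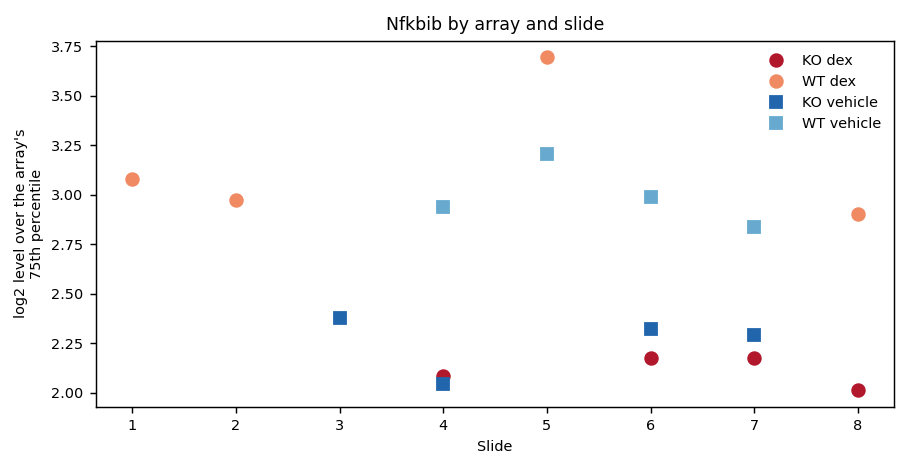
Nfkbib level (log2 over the array's 75th percentile) on each of the 16 arrays, plotted by the slide that carried it. Red and orange circles are KO and WT dexamethasone arrays, and dark and light blue squares are KO and WT vehicle arrays. On every slide with both genotypes the KO points (2.01 to 2.32) lie below the WT points (2.84 to 2.99).

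Relb and Nfkb2 encode the subunits of the alternative NF-kB dimer; the Nfkb2 product p100 also restrains other dimers. Relb was 0.92, 1.02, 0.90 and 1.14 in KO dexamethasone arrays and 0.77, 1.23, 1.03 and 0.88 in WT dexamethasone arrays, against 1.52, 1.73, 1.51 and 1.04 in KO vehicle arrays and 1.19, 1.32, 1.54 and 1.61 in WT vehicle arrays. KO vehicle replicate 4 was the vehicle array nearest to the dexamethasone groups. On average Relb fell by 0.45 log2 units (SE 0.11, adjusted p = 0.0089, limma), while its changes in KO (-0.45, adjusted p = 0.0748) and in WT (-0.44, adjusted p = 0.0759) did not pass singly. The average call held in 9 of 12 other settings, and with slide as a fixed block the change was -0.35 (adjusted p = 0.102).

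Nfkb2 was -0.32, -0.09, -0.60 and -0.55 in KO dexamethasone arrays and -0.14, -0.13, -0.17 and -0.56 in WT dexamethasone arrays, against 0.27, -0.05, -0.18 and -0.07 in KO vehicle arrays and -0.46, -0.18, 0.06 and 0.06 in WT vehicle arrays. The groups overlapped in both genotypes, and the average change of -0.25 did not pass (adjusted p = 0.157). Slide changed this call: in KO the change was -0.38 (adjusted p = 0.167), and it passed with slide as a fixed block (-0.33, adjusted p = 0.0329) or a random block (-0.34, adjusted p = 0.0183), as did the average with a random block (-0.22, adjusted p = 0.0391). Within slides the KO change was -0.24, -0.37 and -0.37. Over the arrays Nfkb2 and Relb correlated at r = 0.594. Genes most like Relb were Osbpl6 (r = 0.919), Casr (0.913) and Tigar (0.869), and those most like Nfkb2 included Alg3 (0.949) and Dysf (0.936).

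Il1r1 encodes the signalling receptor for interleukin-1, and Il1r2 encodes the decoy receptor, which binds the ligand without signalling. They are neighbours on chromosome 1. Il1r1 was 0.79, 0.59, 0.74 and 0.94 in KO dexamethasone arrays, against -0.11, 0.12, -0.27 and -0.34 in KO vehicle arrays, with no overlap. How many of all probes separated the KO groups in this way was not counted. In WT it was 1.01, 0.09, 0.12 and 0.19 under dexamethasone, against -0.17, 0.09, -0.13 and -0.00 under vehicle. Only WT dexamethasone replicate 1 stood high, an array that the scanner software marked for evaluation. KO dexamethasone replicates 2 and 4, at 0.59 and 0.94, carried the same mark.

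Il1r1 rose 1.88-fold in KO (log2 change 0.91 ± 0.18 SE, adjusted p = 0.0051, limma). In WT the change was 0.41 ± 0.18 (adjusted p = 0.177), and without WT dexamethasone replicate 1 it was 0.19. The test of the difference between genotypes gave 0.51, with a 95% interval of -0.04 to 1.06 (adjusted p = 0.420). Under dexamethasone KO exceeded WT by 0.41 (adjusted p = 0.295), which became 0.63 without WT dexamethasone replicate 1 and passed (adjusted p = 0.0190). Ifitm2 (r = 0.953), Ackr3 (0.916) and Slc31a2 (0.910) had the most similar patterns.

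The brighter probe of Il1r2 gave -0.51, -1.11, -0.97 and 0.17 in KO dexamethasone arrays, against -1.96, -1.93, -2.61 and -3.44 in KO vehicle arrays. In WT it gave -0.18, -1.12, -0.35 and -0.90 under dexamethasone, against -2.22, -1.46, -0.96 and -2.51 under vehicle. The KO groups were apart, again without a count of such separations over all probes. In WT the vehicle replicate 3 reached into the dexamethasone range. Il1r2 rose 3.67-fold in KO (log2 change 1.88 ± 0.42 SE, adjusted p = 0.01002, limma). In WT the change was 1.15 ± 0.42 (adjusted p = 0.0920), which passed without WT vehicle replicate 3 (1.43, adjusted p = 0.0476). The difference between genotypes was 0.73, with a 95% interval of -0.54 to 1.99.

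The second Il1r2 probe followed the first closely (r = 0.993 over 16 arrays) and changed by 1.87 in KO (adjusted p = 0.0158). Il1r2 is abundant in neutrophils as a matter of background, and the neutrophil-high arrays were the second highest of the 4 dexamethasone arrays in both genotypes, at -0.51 in KO and -0.35 in WT. Without them the KO rise was 1.84 (adjusted p = 0.0355) with the brighter probe and 1.82 (adjusted p = 0.0540) with the other. Il1r1 and Il1r2 correlated at r = 0.789, and Il1r2 was most like Cldn10 (0.955), Tirap (0.909), an adaptor of Toll-like receptors, and Rhobtb3 (0.905).

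**Figure D3:**
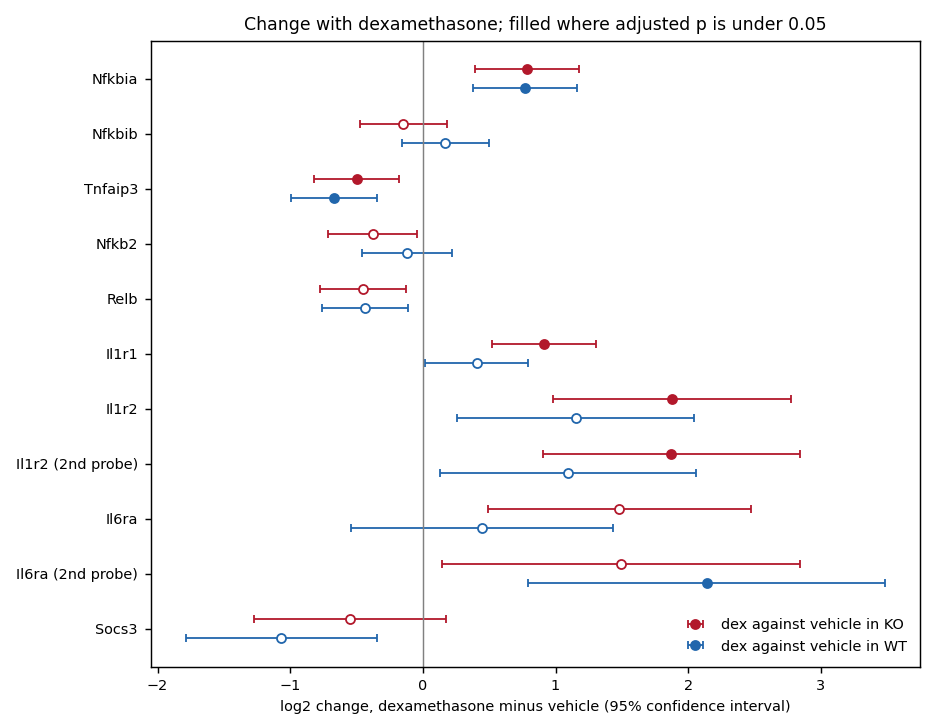
Log2 change, dexamethasone minus vehicle, for all 11 probes with 95% confidence intervals; red is KO and blue is WT, n = 4 arrays per group. Filled points have an adjusted p under 0.05: 5 probes in KO and 3 in WT. Where only 1 genotype is filled the intervals overlap.

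Il6ra encodes the ligand-binding subunit of the interleukin-6 receptor, and its probes disagreed. The brighter gave -0.67, -0.78, -1.42 and -0.62 in KO dexamethasone arrays, against -3.11, -3.34, -1.56 and -1.40 in KO vehicle arrays, and its change of 1.48 ± 0.46 SE did not pass (adjusted p = 0.0572, limma). It passed with slide as a fixed block (1.35, adjusted p = 0.0335) or a random block (1.43, adjusted p = 0.0050). In WT it gave -1.65, -0.51, -1.56 and -1.79 under dexamethasone, against -1.55, -1.43, -2.74 and -1.57 under vehicle, a change of 0.44 (adjusted p = 0.582). The KO vehicle arrays spread widely, with -3.34 and -3.11 on replicates 2 and 1 and -1.56 and -1.40 on replicates 3 and 4.

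The second Il6ra probe rose in WT by 2.14 ± 0.63 (adjusted p = 0.0404), whereas in KO it changed by 1.495 ± 0.63 (adjusted p = 0.172). Its WT dexamethasone replicate 4 stood at 0.23, and without that array the WT change was 1.41 (adjusted p = 0.0663). The WT call held in 7 of 11 other settings and in 7 of 16 fits that left out 1 array, so it is borderline. It was lost with only the groups compared (adjusted p = 0.133), normexp, no filter on dim probes and the replicate block (adjusted p = 0.0669). Averaged over genotypes this probe rose by 1.82 (adjusted p = 0.0103) and the brighter probe changed by 0.96 (adjusted p = 0.0564). The 2 probes correlated at r = 0.313 over the 16 arrays, against 0.993 for the pair of Il1r2. The pattern of the brighter probe was most like Aard (0.961), Gria3 (0.932) and Cyp2d9 (0.914).

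**Figure D4:**
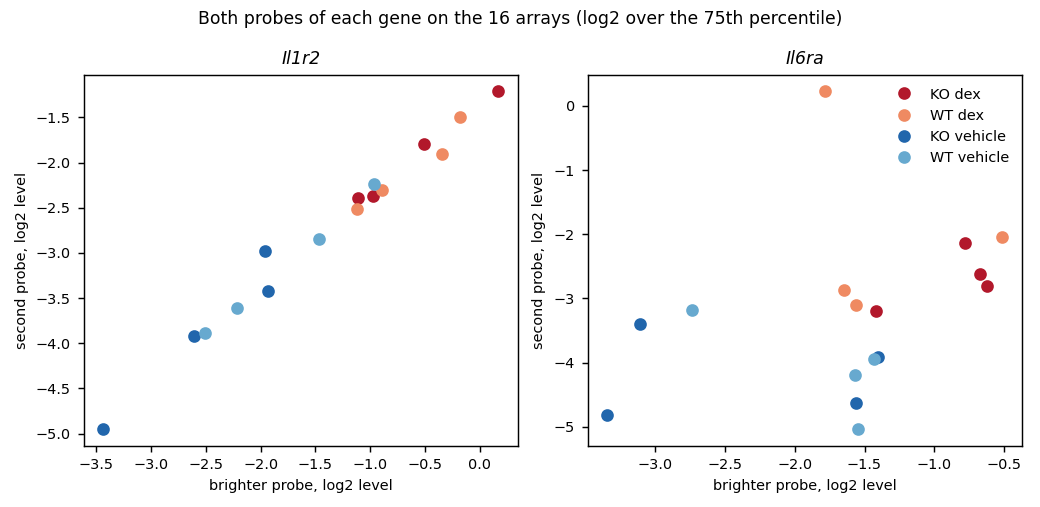
Second probe against brighter probe (both log2 over the array's 75th percentile) for Il1r2 on the left and Il6ra on the right, 1 point per array. The Il1r2 points lie along a line (r = 0.993), and the Il6ra points scatter (r = 0.313), with WT dexamethasone replicate 4 at 0.23 on the second probe.

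Socs3 encodes a feedback inhibitor of JAK-STAT signalling downstream of interleukin-6 family receptors. It was 0.95, -0.20, 0.32 and 0.46 in KO dexamethasone arrays and 0.45, -0.07, -0.06 and 0.87 in WT dexamethasone arrays, against 0.61, 0.71, 1.29 and 1.12 in KO vehicle arrays and 1.02, 0.63, 2.15 and 1.65 in WT vehicle arrays. The groups overlapped in both genotypes. On average Socs3 fell by 0.81 log2 units (SE 0.24, adjusted p = 0.0290, limma), a call that held in 9 of 12 other settings and in 8 of 16 fits that left out 1 array, with a log2 change of -0.93 to -0.68. The changes in KO (-0.55, adjusted p = 0.399) and WT (-1.07, adjusted p = 0.0550) did not pass. Nabp1 (r = 0.900), Socs1 (0.837) and Dll1 (0.805) were most like it.

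Apart from Nfkbib, no gene of the 9 passed between KO and WT under either treatment, and none passed the test of whether the dexamethasone change differed between genotypes, where 0% of probes passed (0 of 32397). At an unadjusted p under 0.05 the number was 4202 probes and 0 of the 9 genes. The count over all probes depended on the setting, with 716 called with slide as a random block and 137 without KO vehicle replicate 4, but none of the 9 genes passed in any of the 12 other settings or 16 fits without 1 array. The widest interval was that of the second Il6ra probe, from -2.55 to 1.26, and differences within it cannot be told apart from none on these arrays. The largest difference on the brightest probes was 1.04 for Il6ra, with an interval of -0.36 to 2.44.

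The wider pathway was described with 6 lists of genes, counted under the same test, and the shares of each list that passed stand beside 10.5% of all probes in KO (5.52% higher, 4.94% lower) and 12% in WT (5.33% higher, 6.66% lower). No gene of the 6 lists passed the test of whether its change differed between genotypes. Of 15 tested brakes other than the 9 genes, 1 rose in KO and 1 in WT (6.67% in each, near the share of all probes higher), and it was Irak3, an inhibitory kinase of interleukin-1 and Toll-like receptor signalling (0.71, adjusted p = 0.0051 in KO; 0.48, adjusted p = 0.0381 in WT). Bcl3, an atypical IkB protein, was lower in KO than in WT under dexamethasone (-0.51, adjusted p = 0.0319), where 0.969% of all probes were lower. Under vehicle its difference was -0.35 (adjusted p = 0.390). The median change of this list was 0.13 in KO and 0.04 in WT, against 0.06 and -0.07 over all probes.

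Of 26 tested subunits, kinases and adaptors, 1 rose and 1 fell in KO (7.69%) and 3 rose and 1 fell in WT (15.4%), both near the shares of all probes. Chuk, the IKK-alpha kinase, rose by 0.41 in KO (adjusted p = 0.0067) and 0.59 in WT (adjusted p = 0.0006). Traf5, an adaptor of tumour necrosis factor family receptors, changed by -0.68 in KO (adjusted p = 0.0017) and -0.64 in WT (adjusted p = 0.0026). Myd88, the adaptor of interleukin-1 and Toll-like receptors, rose in WT by 0.52 (adjusted p = 0.0008) and changed by 0.16 in KO (adjusted p = 0.252), and under dexamethasone it was lower in KO than in WT (-0.38, adjusted p = 0.0180). Tbk1 changed by 0.15 in KO (adjusted p = 0.445) and rose in WT (0.38, adjusted p = 0.0219), and Tab1 fell on average (-0.45, adjusted p = 0.0091).

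Of 23 tested NF-kB target genes, 2 rose and 4 fell in KO and 3 rose and 7 fell in WT, with 17.4% lower in KO and 30.4% lower in WT and medians of -0.42 and -0.45. Ccl2, the chief monocyte chemoattractant, changed by -1.97 in KO (adjusted p = 0.0157) and -2.60 in WT (adjusted p = 0.0029). Ccl7 changed by -1.83 in KO (adjusted p = 0.0507) and -2.95 in WT (adjusted p = 0.0035), where it was well above background on 2 of 4 dexamethasone arrays. Cxcl10 was well above background on 0 of 4 WT dexamethasone arrays, and was at least 5.17-fold lower there than in WT vehicle (adjusted p = 0.0350). For that bound a dim array counted at its own signal or at the faintest signal still well above background there, whichever was larger. In KO Cxcl10 changed by -2.24 (adjusted p = 0.0631), and was well above background on 3 of 4 dexamethasone arrays. Tnfaip2 changed by -1.10 in KO (adjusted p = 0.0070) and -1.32 in WT (adjusted p = 0.0023).

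Lcn2, the iron-binding lipocalin-2, went the other way, by 6.42 in KO (adjusted p = 4.9e-07) and 6.35 in WT (adjusted p = 5.6e-07), as did the survival gene Bcl2l1, by 0.98 in KO (adjusted p = 0.0015) and 1.24 in WT (adjusted p = 0.0003). The fall of the chemokines stood beside the macrophage marker sums given above, and the link was not tested.

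Of 10 other interleukin-1 family genes 1 rose and 1 fell in KO (10% in each direction), and 3 fell in WT (30%). Il33, an alarmin cytokine, changed by -1.76 in KO (adjusted p = 0.0006) and -1.26 in WT (adjusted p = 0.0064). Il18 changed by -0.48 in KO (adjusted p = 0.134) and fell in WT (-0.75, adjusted p = 0.0178). Il1rap, the co-receptor of Il1r1, rose in KO (0.43, adjusted p = 0.0269) and changed by 0.00 in WT (adjusted p = 0.999). Il1rl2 was well above background on 0 of 4 WT dexamethasone arrays, and was at least 2.37-fold lower there than in WT vehicle, where 3 of 4 arrays measured it (adjusted p = 0.0130). In KO Il1rl2 changed by 0.60 (adjusted p = 0.527), and was well above background on only 1 of 4 vehicle arrays. Casp1, which matures interleukin-1 beta, fell on average (-0.59, adjusted p = 0.0265).

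Of 28 genes of the interleukin-6 family and JAK-STAT, 6 rose and 3 fell in KO (32.1% in all) and 4 rose and 2 fell in WT (21.4% in all). Socs1, a relative of Socs3, changed by -1.94 in KO (adjusted p = 0.0411) and -2.21 in WT (adjusted p = 0.0201). Osmr, the oncostatin M receptor, rose by 0.89 in KO (adjusted p = 0.0004) and 0.68 in WT (adjusted p = 0.0028). Its other probe changed by 0.40 in KO and 0.57 in WT. The brightest probe of Ptpn11, the phosphatase SHP2, rose by 0.95 in KO (adjusted p = 0.0001) and 0.67 in WT (adjusted p = 0.0020). The 2 other Ptpn11 probes changed by 1.02 and 1.08 in KO, but by only 0.24 and 0.12 in WT. Tyk2, a Janus kinase, fell in KO (-0.58, adjusted p = 0.0009) and changed by -0.17 in WT (adjusted p = 0.256).

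Among 25 other interleukin and tumour necrosis factor receptors, 2 rose and 1 fell in KO (12%), near the share of all probes, and 1 fell in WT (4%). Il4ra rose by 0.52 in KO (adjusted p = 0.0423) and changed by 0.47 in WT (adjusted p = 0.0632), and Il17rc rose by 0.39 in KO (adjusted p = 0.0455) and changed by 0.06 in WT (adjusted p = 0.780). Il2rg, the common gamma chain, fell in KO (-1.22, adjusted p = 0.0188) and changed by -0.82 in WT (adjusted p = 0.0998). Il3ra changed by -0.09 in KO (adjusted p = 0.926) and fell in WT (-1.06, adjusted p = 0.0378). On average Il15ra rose (0.49, adjusted p = 0.0407) and Il13ra1 fell (-0.49, adjusted p = 0.0418). Median changes were -0.06 in KO and 0.04 in WT for the subunits and kinases, 0.44 and -0.58 for the interleukin-1 family, 0.08 and 0.05 for the interleukin-6 list and 0.18 and -0.05 for the other receptors. Between KO and WT under dexamethasone, where 2.86% of all probes passed, only Bcl3 and Myd88 of all 6 lists did. They were 6.67% of the brakes and 3.85% of the subunits, kinases and adaptors. Under vehicle, where 0.235% of all probes passed, no list gene did.

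**Figure D5:**
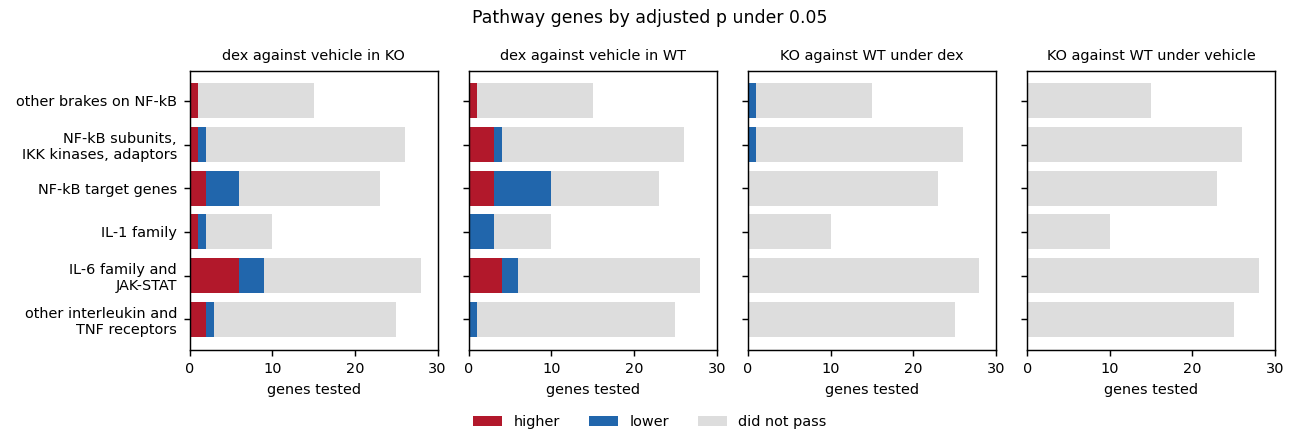
Number of tested genes of each of 6 lists that were higher (red), lower (blue) or did not pass (grey) at an adjusted p under 0.05, for dexamethasone against vehicle in KO and in WT and for KO against WT under dexamethasone and under vehicle. The target genes show 4 falls in KO and 7 in WT. The genotype panels hold 2 lower genes in all, both under dexamethasone, where 0.969% of all probes were lower.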

How the data were processed

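Quadriceps RNA of 16 mice was measured on 16 single-colour arrays. The deposited scanner files hold intensity per spot on a linear scale. Per the file headers they came from Feature Extraction 10.7.3.1 with a grid of build mm9. A deposited table of log2 values of the same arrays was used as an alternative. How it was normalized was not stated in the sources used here. Per the labels' protocols, RNA was amplified with a whole-transcript kit and labelled with Cy3.

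Log2 of the processed signal was scaled to each array's 75th percentile. Control and outlier spots were dropped, and spots of 1 probe were averaged. A probe was tested if it was well above background on 4 or more arrays. Accessions were matched to RefSeq symbols (24844 of 41174 probes). For several probes of a gene the brightest was used, and for the members the others are given beside it. For the list genes, other probes are given for Osmr and Ptpn11 only. The 4 group means were fitted with limma 3.58.1 in R 4.3.3, over all 32397 probes, with Benjamini-Hochberg adjustment. A model of this form was tested on simulated data. After each group's mean was subtracted per probe, same-numbered arrays of different groups correlated at -0.663 to 0.654, so the numbers were not taken as pairs. Normexp used the median signal, since the files hold no mean signal. The arrays lay on 8 slides and were scanned on 2 dates. Only 1 array was scanned on the second, WT dexamethasone replicate 3, which was also neutrophil-high. The scanner software marked 3 arrays for evaluation, WT dexamethasone replicate 1 and KO dexamethasone replicates 2 and 4, and these were kept. No vehicle array was marked or scanned on the second date.

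The members and gene lists were chosen with earlier results of these data known. The promoter motifs were chosen after the data were seen. Genes named are all members, up to 4 called genes per list and comparison with the largest change, and the 3 most similar genes per member; some genes under this rule are not reported here. Having 4 arrays per group limits precision.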

Additional observations from a re-analysis of the deposited data

Results flagged for a closer look

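In 44 groups of 4 arrays, formed by 11 probes and 4 groups, 3 held an array far from the other arrays of its group, by the ratio of its gap to the group's range. Chance flags about 1 in 20 such groups. Nfkb2 was lowest on WT dexamethasone replicate 4, at -0.5574, where the other 3 arrays lay between -0.1665 and -0.1304. Il1r1 was highest on WT dexamethasone replicate 1, at 1.0064, against 0.0934 to 0.1937 on the other 3. The brighter Il6ra probe was lowest on WT vehicle replicate 3, at -2.7365, against -1.5707 to -1.4313. Without these arrays the change under dexamethasone in WT was -0.02 for Nfkb2, 0.19 for Il1r1 and 0.14 for Il6ra, and none passed.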

How the results depend on the processing

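The 11 probes were refitted under 13 other settings, and with each of the 16 arrays left out. No result that passed in either fit changed sign; 76 sign changes among 1868 values concerned results that passed in neither, and these were counted as the same. The number of the 9 genes called in WT under dexamethasone (2) was 1 with median scaling, slide as a fixed block and only the groups compared, and 0 with normexp. Relb was gained in WT with quantile normalization and with slide as a random block. Socs3 was gained there with the deposited values, with the replicate block and when only probes well above background on all arrays were tested. Il6ra was gained there with the mean of its probes. In KO (4) the number was 0 with normexp, 7 with slide as a random block and 2 with only the groups compared. Tnfaip3 held in KO in only 3 of the 13 settings. Relb was gained in KO with quantile normalization, and Nfkb2 and Il6ra with slide as a fixed block. Il6ra was also gained in KO with the mean of its probes and when only probes well above background on all arrays were tested. The average (6) had 3 with normexp and 8 with slide as a random block, where Nfkb2 and the brighter Il6ra probe also passed. With median scaling or slide as a fixed block it had 5, with Relb and Socs3 lost and Il6ra gained. Il6ra was also gained on average with quantile normalization, the mean of its probes and the filter for all arrays well above background. KO against WT under vehicle (0) had 1 with slide as a random block and 0 to 1 over the left-out arrays. KO against WT under dexamethasone (1) had 0 with normexp, slide as a fixed block and only the groups compared, and 1 to 2 over the left-out arrays. Under vehicle the count of 1 came without WT dexamethasone replicate 2, and under dexamethasone the count of 2 came without WT dexamethasone replicate 1. With the replicate block the counts were 3 in WT, 3 in KO, 6 on average, and 0 and 1 between genotypes. Over all probes normexp called 255 in WT and 491 in KO, against 3886 and 3389, and its median SD within groups was 0.502, against 0.267. Its median change over all probes was 0.20 in KO and 0.15 in WT, against 0.06 and -0.07. Median scaling called 1907 in KO. Slide as a fixed block called 1131 in WT. Between genotypes under dexamethasone 927 probes passed, 259 after median scaling and 53 with slide as a fixed block. All 11 probes were well above background on every array, but the calls still depended on the background correction, as the normexp counts show. The second Il6ra probe read 31.0 intensity units on WT vehicle replicate 1. The faintest signal still well above background on that array was 17.5.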
